A study of Mus musculus with 12 samples.

Results

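Open chromatin was compared between transformed mouse embryonic fibroblasts (MEFs) carrying Hdac7SA and Mef2d and MEFs carrying Hras and Myc, both untreated. ATAC-seq, in which the Tn5 transposase cuts DNA where nucleosomes are sparse, had been performed on 2 libraries for each line from about 50000 cells per library, and 1 pooled peak list was used for each line. Peaks that overlapped by at least 1 bp over the 7 peak lists of the series were merged into 147985 loci, and a locus was called open in a line where that line's list had a peak. By this rule 65279 loci were open only in Hdac7SA.Mef2d, 13833 were open only in Hras.Myc, 53345 were open in both lines and 15528 were open in neither. The comparison sets a transformed line that could be reprogrammed to pluripotency beside a line that could not. The lines also differ in all their introduced genes. Differences tied to reprogramming, to the introduced genes or to the line itself cannot be told apart here.

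The Hdac7SA.Mef2d cells had been immortalized with Mef2d together with Hdac7SA, a form of Hdac7 in which serines were replaced by alanine to block its export from the nucleus. The Hras.Myc cells had been immortalized with an activated Hras and Myc. Both groups were labelled as OG2 MEFs, which carry an Oct4-GFP reporter, although the growth protocol names an ICR background for the embryos (day 13.5). Neither group received an inhibitor. The other 5 lists, used here only to place the loci, came from Hras.Myc cells given the MEK inhibitor PD or the histone deacetylase inhibitor TSA for 2 days, and from Hras.E1A cells untreated or given the same inhibitors. Sex, the number of clones behind each line and whether the 2 libraries came from separate cultures are not given in the sources used here. Because each of the 2 lists compared pools its libraries, no spread between replicates could be measured and no test was possible. The TSA lists come from 1 library each. Intervals below are exact binomial 95% intervals (Clopper-Pearson), or normal approximations on the log scale for ratios, and cover counting error only. The number of reads behind each list is unknown.

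MEF2 proteins are MADS-box transcription factors that bind A/T-rich sites and drive muscle, neuronal and other differentiation genes, and class IIa histone deacetylases such as Hdac7 bind MEF2 directly and keep its targets repressed while they are in the nucleus. Hras signals through RAF, MEK and ERK, whose targets include the FOS and JUN proteins that form AP-1, a factor that opens distal enhancers in fibroblasts. Myc binds E-boxes, mostly at promoters. TEAD factors are the DNA-binding partners of YAP and TAZ and share many fibroblast enhancers with AP-1.

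Examples of the sequences at the centres of the strongest unshared loci are given first, since the motifs in them recur in the results below. All are 100 bp long, read from the plus strand of mm10 (GRCm38), lie in introns or between genes outside exons, and are named by the gene with the nearest transcription start site (TSS). The highest-scoring distal loci open only in Hdac7SA.Mef2d that held a match to the MEF2 consensus within this window were the following, with the match in capitals.
Ano1 locus (chr7:144720144-144720243): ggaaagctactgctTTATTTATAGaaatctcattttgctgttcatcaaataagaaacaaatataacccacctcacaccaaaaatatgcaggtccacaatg
Ccser1 locus (chr6:62078310-62078409): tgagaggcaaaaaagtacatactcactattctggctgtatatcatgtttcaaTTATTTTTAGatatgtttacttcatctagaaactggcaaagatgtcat
Edil3 locus (chr13:87484058-87484157): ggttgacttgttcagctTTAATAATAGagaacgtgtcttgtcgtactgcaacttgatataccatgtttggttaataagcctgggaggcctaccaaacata

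The highest-scoring distal loci open only in Hdac7SA.Mef2d with the TEAD motif GGAATG on either strand were near Wfdc17, Mtdh and Cnot4, with the motif in capitals. The Cnot4 sequence also holds, in lower case, the AP-1 motif TGAGTCA on the other strand (tgactca).
Wfdc17 locus (chr11:83690149-83690248): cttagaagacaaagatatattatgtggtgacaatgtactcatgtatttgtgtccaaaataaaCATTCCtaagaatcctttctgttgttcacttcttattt
Mtdh locus (chr15:34146570-34146669): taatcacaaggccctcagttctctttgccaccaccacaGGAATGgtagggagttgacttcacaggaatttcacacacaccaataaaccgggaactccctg
Cnot4 locus (chr6:35082572-35082671): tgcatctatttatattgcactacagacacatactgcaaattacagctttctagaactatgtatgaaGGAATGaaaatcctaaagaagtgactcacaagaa

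The highest-scoring distal loci open only in Hras.Myc with the AP-1 motif TGAGTCA on either strand were near Npepl1, Dcbld1 and Gpr82, again with the motif in capitals.
Npepl1 locus (chr2:174163173-174163272): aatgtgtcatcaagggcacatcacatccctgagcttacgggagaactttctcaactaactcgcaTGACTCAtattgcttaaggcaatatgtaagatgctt
Dcbld1 locus (chr10:52273163-52273262): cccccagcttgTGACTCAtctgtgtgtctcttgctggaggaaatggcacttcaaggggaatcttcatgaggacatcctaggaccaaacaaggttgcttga
Gpr82 locus (chrX:13718495-13718594): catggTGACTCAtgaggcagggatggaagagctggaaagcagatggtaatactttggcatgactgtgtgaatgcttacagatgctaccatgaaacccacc

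The Hdac7SA.Mef2d list was the longest of the 7 and held 119251 peaks, against 67738 peaks in the Hras.Myc list. Of the 132457 loci open in either line, 49.3% were open only in Hdac7SA.Mef2d and 10.4% only in Hras.Myc. Seen from each list, 55% (54.7 to 55.3) of the Hdac7SA.Mef2d loci had no Hras.Myc peak, while 20.6% (20.3 to 20.9) of the Hras.Myc loci had no Hdac7SA.Mef2d peak. The Hdac7SA.Mef2d list thus covered most of the Hras.Myc list, and its other loci outnumbered the shared ones. The positions were not called independently, since 79.5% of the Hras.Myc peaks (53846) had exactly the coordinates of an Hdac7SA.Mef2d peak.

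Peak number alone was removed by cutting the Hdac7SA.Mef2d list by score to its 67738 strongest peaks. Of the 103675 loci then open in either line, 35.2% (36497 loci) were open only in Hdac7SA.Mef2d and 34.8% (36051 loci) only in Hras.Myc, with 31127 shared. The loci that this step added to those open only in Hras.Myc were shared loci whose Hdac7SA.Mef2d peak was among those removed. Lists of equal length must leave nearly equal unshared counts, so the likeness of these counts is not a result about the lines. Strength was looked at next by setting the highest-scoring loci of each full list against the other full list. The shares that follow therefore still carry the unequal list lengths. Among the 1000 highest-scoring Hdac7SA.Mef2d loci 61.1% had no Hras.Myc peak, and among the 1000 highest-scoring Hras.Myc loci 10.9% had no Hdac7SA.Mef2d peak. The share without a partner fell slowly down the Hdac7SA.Mef2d list, to 54.1% of its top 60000 loci, and grew down the Hras.Myc list, to 18.6% of its top 60000.

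**Figure D1:**
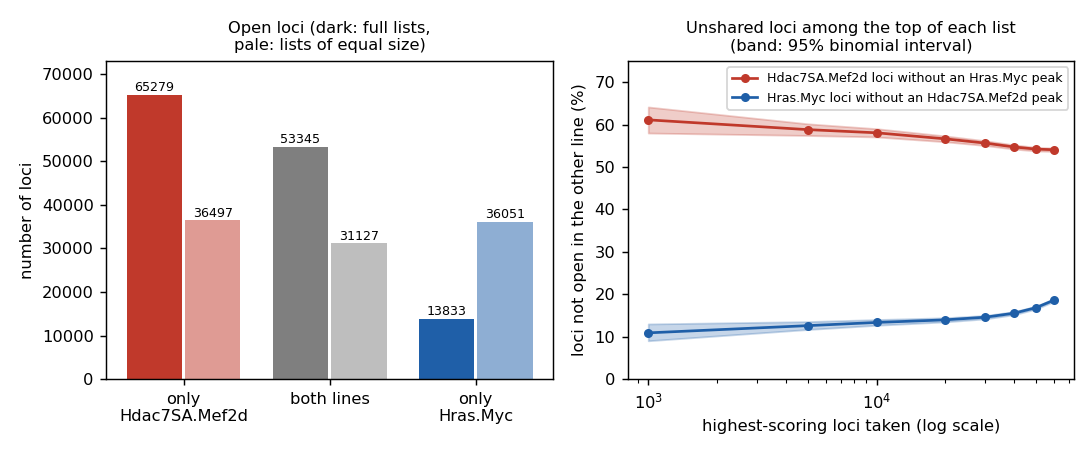
Left, number of loci open only in Hdac7SA.Mef2d, in both lines and only in Hras.Myc, with full lists (dark bars) and with the Hdac7SA.Mef2d list cut to 67738 peaks (pale bars). Right, share of the highest-scoring loci of each list with no peak in the full list of the other line (y axis, %). The x axis is the number of loci taken (log scale), and bands are 95% binomial. The Hdac7SA.Mef2d curve stays between 61.1% and 54.1%, and the Hras.Myc curve between 10.9% and 18.6%.

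Unshared loci held a different place in each list. Peak scores have no stated scale, so each was converted to a rank within its list (0 lowest, 100 highest). Loci open only in Hdac7SA.Mef2d had a median rank of 49.3 (quartiles 24.0 and 75.4) in that list, against 51.2 for its shared loci. Loci open only in Hras.Myc had a median rank of 36.2 (quartiles 14.7 and 63.7) in the Hras.Myc list, against 53.7 for its shared loci. Unshared loci therefore sat at the middle of the Hdac7SA.Mef2d list and in the lower part of the Hras.Myc list.

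Loci open in one line only lay mostly away from promoters. Loci within 1000 bp of a protein-coding TSS made up 2.63% (1717 loci, interval 2.51 to 2.76) of those open only in Hdac7SA.Mef2d and 5.53% (765 loci, interval 5.16 to 5.92) of those open only in Hras.Myc, against 25.6% (13681 loci) of the shared loci. Intergenic sequence held 52.4% of the loci open only in Hdac7SA.Mef2d and 42.9% of those open only in Hras.Myc, and introns held 45% and 51.2% in the same order. With lists of equal size the promoter share was 1.31% (478 loci) on the side of Hdac7SA.Mef2d and 17.3% (6219 loci) on that of Hras.Myc. Away from promoters, the median distance to a TSS was 59982 bp for loci open only in Hdac7SA.Mef2d and 26634 bp for loci open only in Hras.Myc, against 27972 bp for shared loci.

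The share of loci open only in Hdac7SA.Mef2d grew with distance from genes. Within 1000 bp of a TSS 10.6% of the 16163 loci were open only in Hdac7SA.Mef2d and 4.73% only in Hras.Myc. Between 10000 and 50000 bp these shares were 46.7% and 13.2% of 44954 loci. Beyond 500000 bp they were 88.1% and 1.91% of 4860 loci, and with lists of equal size 84.4% and 5.59% of 3719 loci. Nearer to genes Hras.Myc led at equal size, with 3.20% open only in Hdac7SA.Mef2d and 41.7% only in Hras.Myc within 1000 bp, 22.6% and 49.8% from 1000 to 10000 bp, and 32.0% and 37.7% from 10000 to 50000 bp. The share of Hdac7SA.Mef2d was thus the larger at every distance with full lists, and only beyond 50000 bp with lists of equal size.

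Base composition moved with this difference. The median GC content of the central 200 bp was 42.5% in loci open only in Hdac7SA.Mef2d and 50.5% in loci open only in Hras.Myc, against 51.5% in shared loci. Where GC was at most 35%, 94.1% of 7201 loci were open only in Hdac7SA.Mef2d and 0.680% only in Hras.Myc. Between 55 and 60% GC the shares were 20.1% and 19.2% of 10730 loci. With lists of equal size the lowest bin still had 91.1% only in Hdac7SA.Mef2d and 4.36% only in Hras.Myc, while the bin from 55 to 60% had 7.47% and 54.9%. The top of the Hdac7SA.Mef2d list was itself A/T-rich, with a median GC of 42.5% in its 1000 strongest loci, against 48.0% in those of Hras.Myc. The part of GC content in the counts was not tested.

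**Figure D2:**
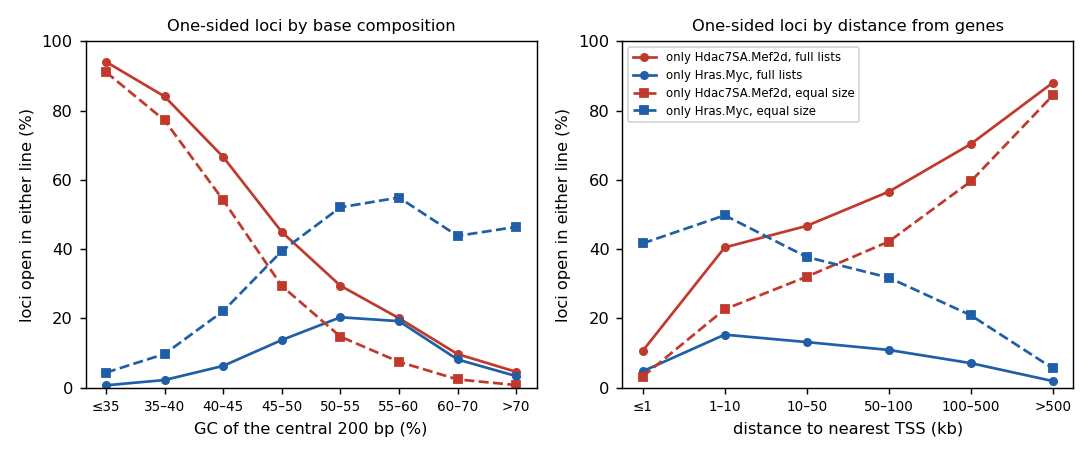
Share of loci open in either line that were open only in Hdac7SA.Mef2d (red) or only in Hras.Myc (blue), by GC content of the central 200 bp (left, %) and by distance to the nearest TSS (right, kb), for full lists (solid) and lists of equal size (dashed). The red lines fall from 94.1% to 4.58% with GC in the full lists and climb from 10.6% to 88.1% with distance.

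Transcription factor motifs in the central 200 bp separated the classes. Distal loci, more than 1000 bp from a TSS, numbered 63562 for Hdac7SA.Mef2d only, 13068 for Hras.Myc only and 39664 shared. Motifs were searched on both strands, and a match describes letters, not a bound site.

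The MEF2 consensus matched 6.55% (6.36 to 6.74) of the distal loci open only in Hdac7SA.Mef2d and 0.957% (0.797 to 1.14) of those open only in Hras.Myc, against 2.27% of shared loci and 3.80% of all 147985 loci. The ratio was 6.85 (5.74 to 8.17). Because the MEF2 site is A/T-rich, the Hras.Myc loci were weighted to the GC distribution of the Hdac7SA.Mef2d loci over 10 bins, which gave 3.18% and a ratio of 2.06 (1.46 to 2.91). Shared loci weighted in the same way held 4.45%, and the ratio over them was 1.47 (1.32 to 1.63). A MEF2 match can overlap a homeobox match, and the homeobox motif TAATTA did not keep its direction under this weighting. It was in 4.93% of loci open only in Hdac7SA.Mef2d and 2.80% of those open only in Hras.Myc, but in 5.90% of the Hras.Myc loci after weighting. Of the motifs of the introduced factors, MEF2 was thus the one that stayed higher in Hdac7SA.Mef2d, and the Myc E-box CACGTG, in 2.30% of loci only in Hdac7SA.Mef2d and 3.59% only in Hras.Myc, was at a ratio of 1.12 (0.954 to 1.30) after weighting.

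Other motifs also favoured Hdac7SA.Mef2d. GGAATG was in 24.7% (24.3 to 25.0) of distal loci open only in Hdac7SA.Mef2d and in 12.5% (11.9 to 13.0) of those open only in Hras.Myc, against 17.5% of shared loci and 18.9% of all loci. The ratio of 1.98 was 2.13 (1.91 to 2.37) after GC weighting. AACCACA, the core site of RUNX factors, which act in bone, blood and fibroblast differentiation, was in 9.50% of loci open only in Hdac7SA.Mef2d and 5.35% of those open only in Hras.Myc, against 7.23% of all loci, a ratio of 1.62 (1.38 to 1.90) after weighting. TTGCNNAAT, bound by C/EBP factors, was in 3.62% and 1.30% in the same order, against 2.50% of all loci, a ratio of 1.74 (1.21 to 2.51) after weighting. The REL motif, of the NF-kappaB factors, had a ratio of 1.13 (0.927 to 1.37) before weighting and 2.26 (1.71 to 2.97) after it, and TTCCNGGAA, bound by STAT factors, 1.58 and 1.83 (1.28 to 2.60), so MEF2 and TEAD were not alone among the higher weighted ratios. REL was in 1.02% and STAT in 0.953% of all loci.

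The AP-1 motif lay on the other side. TGAGTCA was in 19.5% (19.2 to 19.8) of distal loci open only in Hdac7SA.Mef2d and in 42.1% (41.2 to 42.9) of those open only in Hras.Myc, against 35.2% of shared loci and 23.7% of all loci. The ratio of 0.464 was 0.442 (0.421 to 0.464) after GC weighting and 0.639 (0.624 to 0.655) with lists of equal size. KLF, whose motif GGGCGTGG was in 0.283% of loci open only in Hdac7SA.Mef2d and 1.71% of those open only in Hras.Myc (1.33% of all loci), had a ratio of 0.165 before weighting and 0.455 (0.360 to 0.574) after it. CTCF, the insulator protein, was a mark of shared loci. Its consensus was in 0.842% of distal loci open only in Hdac7SA.Mef2d and 2.21% of those open only in Hras.Myc, against 8.16% of shared distal loci and 2.98% of all loci.

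The place of the matches within the loci gave a comparison of each class with its own flanks. The GC content of the flanks was not measured, and its part in the ratios of centre to flank was not tested. Matches within 100 bp of the locus centre were set against those 200 to 500 bp away, per 1000 loci and 100 bp. MEF2 matches numbered 35.5 at the centre and 26.6 at the flank for loci open only in Hdac7SA.Mef2d, a ratio of 1.34 (1.29 to 1.38). They numbered 5.13 and 17.0 for loci open only in Hras.Myc, a ratio of 0.302 (0.253 to 0.361), and shared loci had 0.636 (0.593 to 0.681). MEF2 matches were thus denser at the centre than at the flank only for loci open in Hdac7SA.Mef2d alone, and sparser at the centre in the other classes. With promoter loci included, median GC of the central 200 bp was 42.5% in that class, 51.5% in shared loci and 50.5% in Hras.Myc loci. TEAD had a ratio of 2.31 (2.27 to 2.35) in loci open only in Hdac7SA.Mef2d and 1.25 (1.18 to 1.32) in those open only in Hras.Myc, and RUNX 2.08 (2.01 to 2.14) and 1.13 (1.03 to 1.23). C/EBP matches were concentrated in Hdac7SA.Mef2d loci (1.45, interval 1.39 to 1.53) and sparse at the centre of Hras.Myc loci (0.711, interval 0.603 to 0.839). AP-1 was concentrated in both, 5.63-fold (5.47 to 5.80) and 10.6-fold (10.0 to 11.1).

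**Figure D3:**
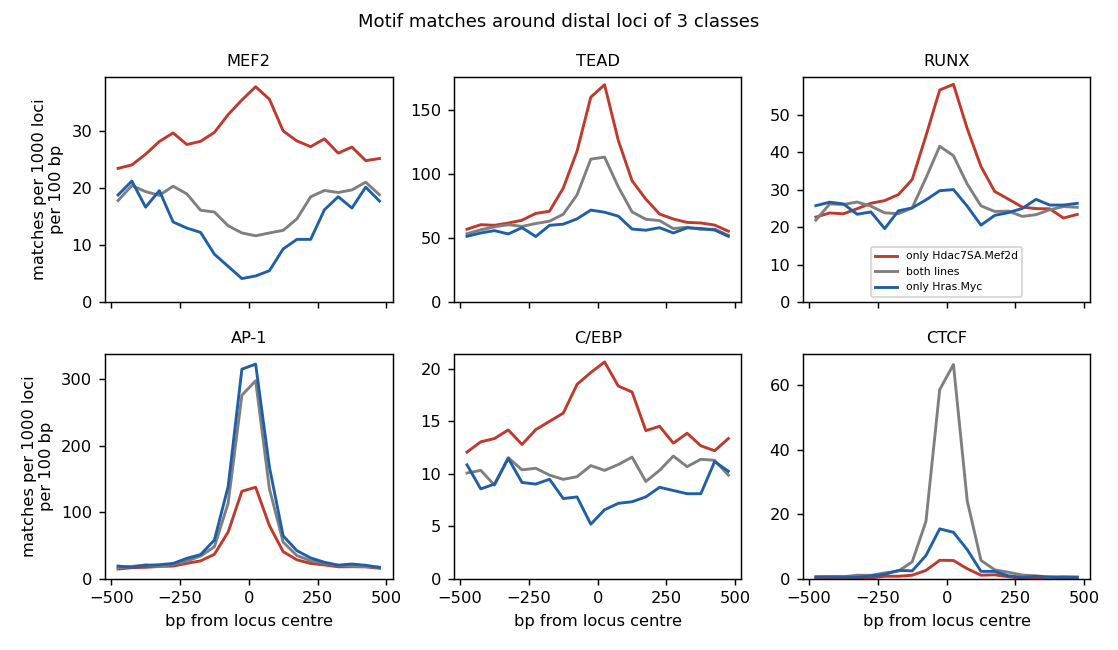
Matches of 6 motifs per 1000 distal loci and 100 bp (y axis) against the distance from the locus centre (x axis, bp, bins of 50 bp), for loci open only in Hdac7SA.Mef2d (red), in both lines (grey) and only in Hras.Myc (blue). MEF2 peaks at the centre of the red class and dips in the blue one, where 134 matches lay within 100 bp of the centre, while AP-1 peaks in all 3 classes and CTCF mainly in the shared one.

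Motif content also followed the strength of the peaks. Among distal loci open only in Hdac7SA.Mef2d, MEF2 matches increased from 5.28% at ranks of 0 to 20 to 8.78% at ranks of 80 to 100, TEAD from 20.8% to 30.0%, RUNX from 8.06% to 11.4% and AP-1 from 14.6% to 27.7%. Among those open only in Hras.Myc, AP-1 increased from 32.3% to 64.8%, while MEF2 was 0.875% and 0.666% and TEAD 11.9% and 12.6% in the lowest and highest of these rank classes. The strongest distal loci open only in Hras.Myc thus mostly held an AP-1 match. The strongest distal loci open only in Hdac7SA.Mef2d held each of these motifs more often than the weakest of that class. Median GC fell from 44.5% to 41.0% over the same rank classes of Hdac7SA.Mef2d, and its part in the MEF2 trend was not tested.

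At shared loci, which the unshared classes leave out, MEF2, TEAD and AP-1 motifs were compared by rank. Ranks in the 2 lists had a Spearman rho of 0.794 over 13681 shared promoter loci and 0.478 over 39664 shared distal loci, across loci that are not independent replicates. A rank more than 50 points higher in Hdac7SA.Mef2d was found at 1553 shared distal loci, and one more than 50 points lower at 2763. With ranks taken within lists of equal size these numbers were 691 and 2810 of 22900 shared distal loci. MEF2 matches were in 5.02% (3.99 to 6.23) of the loci with the higher Hdac7SA.Mef2d rank and 1.56% (1.13 to 2.09) of those with the lower. TEAD was in 25.2% (23 to 27.4) and 16.6% (15.3 to 18.1), and AP-1 in 33.1% (30.8 to 35.5) and 53.5% (51.6 to 55.4), in the same order. At equal size MEF2 was in 6.51% and 1.85%, TEAD in 27.2% and 17.0%, and AP-1 in 35.5% and 48.6%. CTCF matches did not follow the unshared loci, with 6.89% (5.68 to 8.27) at the loci with the higher Hdac7SA.Mef2d rank and 4.81% (4.05 to 5.68) at those with the lower, but 5.21% and 7.08% at equal size. The intervals of C/EBP overlapped, at 2.25% (1.57 to 3.12) and 1.52% (1.10 to 2.05). The median GC of these sets was 47.0% and 49.0%.

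Single shared loci reached opposite ends of the lists. The locus 147023 bp from Trib1 (chr15:59795676-59796075), a pseudokinase that directs C/EBP-alpha to degradation, had a rank of 99.2 in Hdac7SA.Mef2d and 0.439 in Hras.Myc. A locus in an intron 13239 bp from a TSS of Sgms1 (chr19:32197375-32197774), a sphingomyelin synthase, had ranks of 97.7 and 0.140. In the other direction, an intronic locus 22948 bp from the TSS of Hbp1 (chr12:31973483-31973882), a repressor of the cell cycle, had a rank of 0.187 in Hdac7SA.Mef2d and 99.1 in Hras.Myc. An intronic locus 66050 bp from a TSS of Casz1 (chr4:148870479-148870878), a zinc finger factor of heart and vessel development, had ranks of 1.69 and 98.0.

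The strongest distal locus open only in Hdac7SA.Mef2d had a rank of 99.995 and lay 13721 bp from the TSS of Tnfrsf11b (chr15:54264364-54264763, intron), which encodes the decoy receptor osteoprotegerin. It was open in none of the other 6 lists, and neither was the locus 7047 bp from Kif3a (chr11:53559933-53560332, rank 99.989), a kinesin of cilia. The same held for a locus near Zfp960 (rank 99.987). Loci near Olfr267 (rank 99.991), Ttc28 (rank 99.9895) and Wfdc17 (rank 99.988), also among the strongest, were open in Hras.Myc+PD and in Hras.E1A. Among the strongest promoter loci of this class was one at Dmd (chrX:82948589-82948988, overlapping a TSS, rank 99.964), which encodes dystrophin of the muscle membrane. The strongest distal locus open only in Hras.Myc lay 1216459 bp from the TSS of Ndufa4 (chr6:10690535-10690934, rank 99.973) and was also open in Hras.Myc+PD and in both TSA lists. Those near Npepl1 (chr2:174163023-174163422, rank 99.917), Nr2c1 (chr10:94174664-94175063, rank 99.889), Aqr (chr2:114134428-114134827, rank 99.859) and Dcbld1 (chr10:52273013-52273412, rank 99.855) were each open in Hras.E1A and in both TSA lists and closed in both PD lists. The strongest promoter loci of this class were at Dtnb (chr12:3588880-3589279, rank 98.8), which encodes a dystrobrevin, and Chn1 (chr2:73626438-73626837, rank 98.0), a GTPase-activating protein for Rac.

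The other 5 lists all come from lines with Hras, 2 of them from Hras.Myc itself, and none carries Hdac7SA or Mef2d. Each TSA list rests on 1 library. Of the loci open only in Hdac7SA.Mef2d, 54.4% (35502) were open in none of the other 5 lists and 22.6% were open in Hras.E1A. Of those open only in Hras.Myc, 5.09% (704) were open in none of them, 69.8% were open in Hras.E1A, 72.9% in Hras.Myc+TSA and 24.3% in Hras.Myc+PD. These shares describe the lists at hand and depend on which lines were measured. Loci with the AP-1 motif were open in the PD lists less often. Of distal loci open only in Hras.Myc, 13.9% (13.0 to 14.9) of those with TGAGTCA and 29.3% (28.3 to 30.4) of those without it were open in Hras.Myc+PD, and 83.4% and 65.6% were open in Hras.Myc+TSA. Of distal loci open only in Hdac7SA.Mef2d, 5.97% (5.56 to 6.40) with the motif and 16.8% (16.4 to 17.1) without it were open in Hras.Myc+PD. Loci with a MEF2 match and open only in Hdac7SA.Mef2d were open in Hras.E1A in 11.2% (10.3 to 12.2) of cases, against 22.9% (22.5 to 23.2) of those without a match.

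Loci were assigned to genes by the nearest TSS within 10000 bp. Over all genes, 26.9% of 35581 such loci were open only in Hdac7SA.Mef2d and 10.5% only in Hras.Myc, and with lists of equal size these shares were 12.9% and 45.7% of 29857. Gene lists are read against these shares and by their counts alone. A promoter was open only in Hdac7SA.Mef2d for 917 genes and only in Hras.Myc for 362 genes. These are 6.22% and 2.45% of the 14754 genes with an open promoter in either line. Of all 21911 genes, 14392 had an open promoter in Hdac7SA.Mef2d and 13837 in Hras.Myc.

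Muscle genes known as MEF2 targets had the highest share of loci specific to Hdac7SA.Mef2d among the 28 lists at 10000 bp, while collagen and matrix genes were above them within 5000 bp (43.5%, against 40.6% for the muscle genes) and within 50000 bp (55.5%, against 53%). Of 53 loci at these 20 genes, 28 were open only in Hdac7SA.Mef2d (52.8%, interval 38.6 to 66.7) and 7 only in Hras.Myc (13.2%), and with lists of equal size 10 and 15 of 35. Promoters of 13 of the genes were open in Hdac7SA.Mef2d and of 9 in Hras.Myc. Those of Des, Actc1, Acta1 and Xirp1 were open only in Hdac7SA.Mef2d, and none was open only in Hras.Myc.

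Fhl1, the gene of a LIM-domain protein found in skeletal and cardiac muscle, had the largest net number of loci of any named gene. On chromosome X, 8 loci within 10000 bp of its start sites were open only in Hdac7SA.Mef2d, 1 was shared and none was open only in Hras.Myc. The strongest of the 8 overlapped an alternative TSS of Fhl1 (chrX:56779312-56779711, rank 88.1), and the lowest of them had a rank of 14. The shared promoter locus (chrX:56731286-56731685) ranked 53.6 in Hdac7SA.Mef2d and 88.1 in Hras.Myc. At Des, the intermediate filament desmin, 3 loci were open only in Hdac7SA.Mef2d, of which the one 593 bp from the TSS (chr1:75359337-75359736) had a rank of 70.4, and a locus in an intron (chr1:75361810-75362209) was open only in Hras.Myc at a rank of 55.7. At Actc1, cardiac actin, all 3 loci were open only in Hdac7SA.Mef2d, at ranks of 29.3 to 47.2. The promoter peaks of Acta1, skeletal actin, and Xirp1, an actin-binding protein, were weak, with ranks of 3.45 and 8.95, and were lost when the Hdac7SA.Mef2d list was shortened.

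Muscle identity itself was not uniformly on the side of Hdac7SA.Mef2d. Hdac7SA.Mef2d had open promoters at 3 of 8 skeletal muscle markers, against 1 for Hras.Myc. Over all 21911 genes the numbers were 14392 and 13837. The promoters of Myod1, Myf5 and Myog, the transcription factors that specify muscle, were open in neither line. Myog had 3 loci open only in Hras.Myc, at ranks of 12.2 to 49.8, and no locus in Hdac7SA.Mef2d. Contractile and SRF target genes, most of which fibroblasts also use, had 16 loci open only in Hdac7SA.Mef2d, 7 only in Hras.Myc and 41 shared of 64. The unshared parts, 25.0% and 10.9%, were near the 26.9% and 10.5% over all genes. At equal size they were 11.1% and 38.9%, against 12.9% and 45.7% over all genes. The promoter of Cnn1, calponin, was open only in Hras.Myc at a rank of 16.1.

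The genes of the MEF2 and class IIa deacetylase families had 14 loci open only in Hdac7SA.Mef2d and 1 only in Hras.Myc of 34, a share of 41.2% (24.6 to 59.3) for Hdac7SA.Mef2d, against 26.9% over all genes, which lies within that interval. At equal size the counts were 5 and 9 of 25. Mef2c, a MEF2 factor of muscle, neurons and neural crest, had 3 intronic loci open only in Hdac7SA.Mef2d at ranks of 50.4 to 82.5, 1 only in Hras.Myc at 23.9 and 3 shared. Hdac4 had 3 loci open only in Hdac7SA.Mef2d at ranks of 2.71 to 66.4, and Hdac9, whose MEF2-interacting product is also a MEF2 repressor, had an open promoter only in Hdac7SA.Mef2d (rank 30.4). Hdac7 had 9 shared loci and 1 open only in Hdac7SA.Mef2d, and at equal size 4 shared and 5 open only in Hras.Myc.

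The introduced genes were then examined for peaks over coding exons. Mef2d had such a locus (chr3:88159015-88159414) with a score of 13.1 in Hdac7SA.Mef2d and no peak in any of the other 6 lists. A second coding locus (chr3:88157858-88158257) had a score of 2.74 in Hdac7SA.Mef2d and 8.21 in Hras.Myc. At Hdac7 the coding locus beside a TSS (chr15:97831090-97831489) had a score of 1.82 in Hdac7SA.Mef2d and 2.71 in Hras.Myc, and no coding locus was found only in Hdac7SA.Mef2d. Myc had a coding locus with a score of 1.70 in Hras.Myc (chr15:61987699-61988098) and no peak in Hdac7SA.Mef2d, and Hras had none in either line. The scores are not on a known scale between lists, and a transgene and the endogenous gene cannot be told apart in them.

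Collagen and matrix genes also stood above the share of all genes. Of 74 loci at 24 genes, 36 were open only in Hdac7SA.Mef2d (48.6%, interval 36.9 to 60.6) and 6 only in Hras.Myc (8.11%), and with lists of equal size 12 and 27 of 50. Promoters of Col1a2, Col6a3, Col9a1 and Lox were open only in Hdac7SA.Mef2d, and none was open only in Hras.Myc. Col9a1, a cartilage collagen, had 7 loci open only in Hdac7SA.Mef2d and no other, at ranks of 5.92 to 91.7. The promoter of Col1a2, a chain of type I collagen, was open only in Hdac7SA.Mef2d at a rank of 24.2, while an intronic locus 1833 bp away ranked 2.33 in Hdac7SA.Mef2d and 69.8 in Hras.Myc. Lox, which crosslinks collagen, had 3 loci open only in Hdac7SA.Mef2d, none above a rank of 24.0. The promoters of Col6a3 and Col9a1 had ranks of 5.75 and 14.9, so each of these 4 promoter peaks fell out of the list of equal size.

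TGF-beta and BMP signalling genes had 33 loci open only in Hdac7SA.Mef2d and 7 only in Hras.Myc of 87 (37.9%, interval 27.7 to 49.0, and 8.05%). Over all genes the shares were 26.9% and 10.5%. With lists of equal size the counts were 9 and 30 of 63 (14.3% and 47.6%), near the 12.9% and 45.7% over all genes. Within 5000 bp the Hdac7SA.Mef2d share of the full list was 20.4%, below its interval at 10000 bp. Tgfbr1, the type I TGF-beta receptor, had 7 loci open only in Hdac7SA.Mef2d, with ranks from 0.303 to 80.8, beside a shared promoter that ranked 80.2 in Hdac7SA.Mef2d and 86.4 in Hras.Myc. Tgfb2, a ligand, had 4 loci open only in Hdac7SA.Mef2d, 1 only in Hras.Myc and a promoter that ranked 42.5 in Hdac7SA.Mef2d and 74.5 in Hras.Myc. Mesenchymal and EMT genes, which share 6 members with the TGF-beta list, had 24 loci open only in Hdac7SA.Mef2d and 8 only in Hras.Myc of 67 (35.8%, interval 24.5 to 48.5, against 26.9% over all genes). At equal size the counts were 4 and 24 of 47, and the share of 8.51% for Hdac7SA.Mef2d lay below the 12.9% of all genes. Cdh11, a cadherin of mesenchyme, had an open promoter only in Hdac7SA.Mef2d (rank 16.1).

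ERK targets, the AP-1 factors and the AP-1 targets of invasion had smaller shares of loci specific to Hdac7SA.Mef2d than all genes. Over all genes 26.9% of loci were specific to Hdac7SA.Mef2d and 10.5% to Hras.Myc. The ERK list, which holds the feedback phosphatases and Sprouty proteins, had 10 loci open only in Hdac7SA.Mef2d and 11 only in Hras.Myc of 71 (14.1%, interval 7.0 to 24.4, and 15.5%). The AP-1 factors had 3 and 2 of 30 (10.0%, interval 2.1 to 26.5, and 6.67%). The invasion genes had 8 and 8 of 50 (16.0% each, interval 7.2 to 29.1), and this interval held the 26.9% of all genes. Shared loci of the ERK list had a median rank of 30.0 in Hdac7SA.Mef2d and 32.4 in Hras.Myc, against 48.1 and 48.0 for shared loci of all genes. With lists of equal size 3 and 44 of 64 ERK loci (4.69% and 68.8%) were specific to Hdac7SA.Mef2d and to Hras.Myc, against 12.9% and 45.7% over all genes. Promoters of 22 of the 23 ERK genes were open in both lines. Mmp3, a matrix metalloproteinase, had a promoter open only in Hdac7SA.Mef2d (rank 73.6) and an intronic locus that ranked 4.87 in Hdac7SA.Mef2d and 95.6 in Hras.Myc.

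The Hox clusters, which hold positional identity, had 23 loci open only in Hdac7SA.Mef2d and 15 only in Hras.Myc of 97 (23.7% and 15.5%), against 26.9% and 10.5% of such loci over all genes. With lists of equal size none of 74 was open only in Hdac7SA.Mef2d and 56 (75.7%) were open only in Hras.Myc, against 12.9% and 45.7% of all such loci. Promoters of Hoxb2 and Hoxb5 were open only in Hdac7SA.Mef2d, and those of Hoxa6, Hoxa11, Hoxb1, Hoxc9 and Hoxc12 only in Hras.Myc. The promoter peak of Hoxa11 had a rank of 25.8 in Hras.Myc, and that of Hoxb2 a rank of 14.8 in Hdac7SA.Mef2d.

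Genes of the epithelium and of pluripotency, which are switched on during reprogramming, had like numbers of open promoters in the lines. So had all genes, with the promoters of 14392 of 21911 open in Hdac7SA.Mef2d and of 13837 in Hras.Myc. Among 20 epithelial genes the promoters of 15 were open in Hdac7SA.Mef2d and of 16 in Hras.Myc, and the difference was Cldn4, a tight junction claudin, whose promoter (chr5:134946871-134947270) was open only in Hras.Myc at a rank of 93.4 and was open in the other 5 lists as well. The promoter of Cdh1, E-cadherin, ranked 58.2 in Hdac7SA.Mef2d and 9.47 in Hras.Myc, and an intronic locus (chr8:106608291-106608690) was open only in Hras.Myc at a rank of 73.1. The promoter of Epcam ranked 57.9 and 66.8. Of 20 pluripotency genes the promoters of 11 were open in Hdac7SA.Mef2d and of 10 in Hras.Myc, and those of Pou5f1, Nanog and Zfp42 were open in neither. The one that differed was Fgf4, at a rank of 3.57 in Hdac7SA.Mef2d.

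Loci at genes that dividing cells share were mostly open in both lines, as were 22260 of the 35581 loci over all genes. The shares over all genes were 26.9% only in Hdac7SA.Mef2d and 10.5% only in Hras.Myc. Cell cycle and replication genes had 5 loci open only in Hdac7SA.Mef2d and 1 only in Hras.Myc of 34, a share of 14.7% (5.0 to 31.1) for Hdac7SA.Mef2d. That interval held the share over all genes. Housekeeping genes had 1 and 2 of 29 (3.45%, interval 0.1 to 17.8, for Hdac7SA.Mef2d), and p53 and RB checkpoint genes 6 and 7 of 61 (9.84%, interval 3.7 to 20.2). Within the last list Cdkn1a, the p21 cell cycle inhibitor, had 3 loci open only in Hras.Myc at ranks of 2.14 to 18.7 and none only in Hdac7SA.Mef2d. The MYC network and ribosome biogenesis genes had 12 and 5 of 53 (22.6% and 9.43%), near the shares over all genes. The promoters of all 22 were open in both lines. Nlrc5, the activator of MHC class I genes, had 4 loci open only in Hras.Myc and 2 only in Hdac7SA.Mef2d. The promoters of 14 of 16 fibroblast markers were open in Hdac7SA.Mef2d and of 13 in Hras.Myc, with Lum and Postn in neither. Epithelial markers had 7 and 8 of 8, endothelial markers 5 and 4 of 8, neural markers 4 and 5 of 8 and blood markers 3 and 2 of 8, with Ptprc, Spi1, Cdh5 and Tie1 in neither line. For comparison, of all 21911 genes the promoters of 14392 were open in Hdac7SA.Mef2d and of 13837 in Hras.Myc. An open promoter does not measure expression, and the part of other cell types in the lists was not tested.

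**Figure D4:**
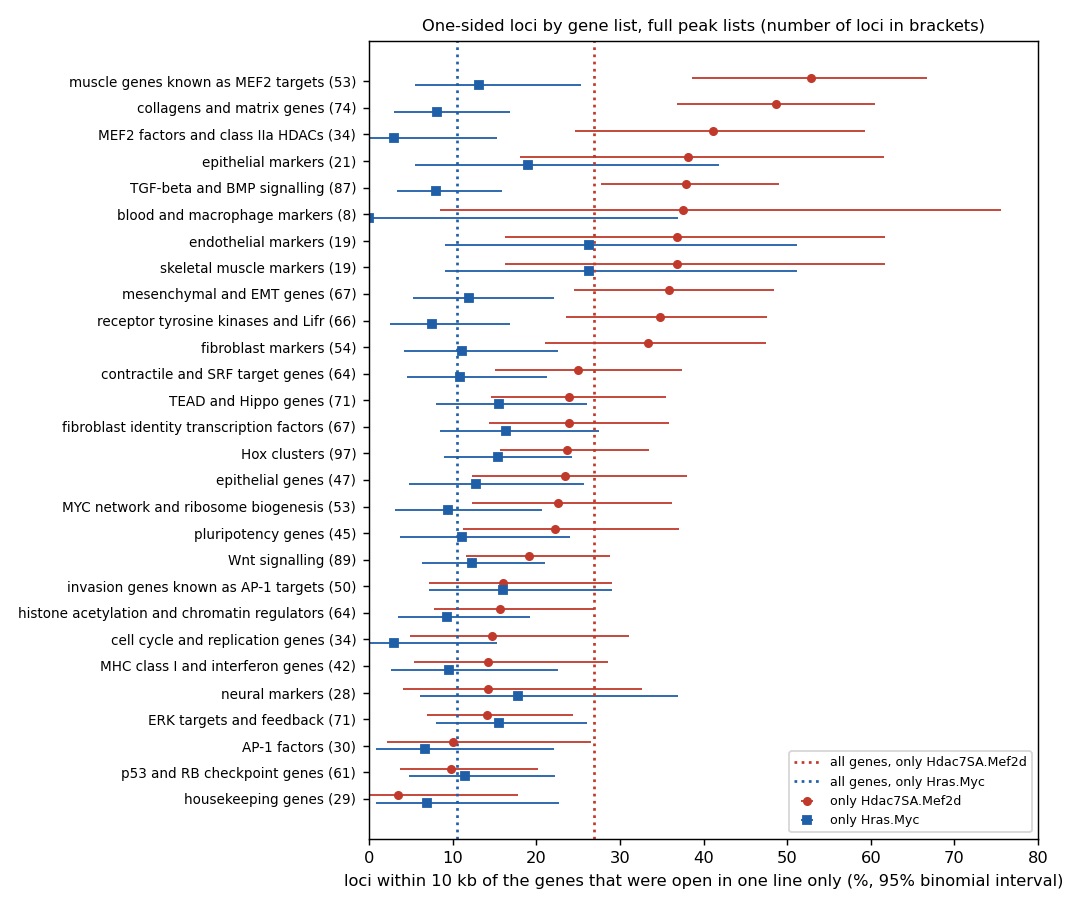
Share of loci within 10000 bp of the genes of 28 lists (rows, with the number of loci open in either line) that were open only in Hdac7SA.Mef2d (red circles) or only in Hras.Myc (blue squares), in %, with 95% binomial intervals. Dotted lines mark the shares over all genes, 26.9% and 10.5%. Muscle MEF2 targets, at 52.8%, and collagens, at 48.6%, lie highest, and housekeeping genes, at 3.45%, lowest.

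Among single genes the largest net numbers, counted as loci open only in Hdac7SA.Mef2d minus those open only in Hras.Myc, were 8 at Fhl1 and 7 at Foxp1, Pik3c2g, Col9a1, Tmcc1 and Tgfbr1. With lists of equal size Fhl1, Arxes2, Ackr4 and Hsd11b1 led, each with a net of 4. Hsd11b1, which makes active glucocorticoid, had 5 loci open only in Hdac7SA.Mef2d at ranks from 2.03 to 91.7, and Ackr4, a scavenging chemokine receptor, had 4 at ranks from 83.7 to 96.9. On the side of Hras.Myc, Sstr3, a somatostatin receptor, led with 5 loci open only in that line and a net of -5, at ranks from 1.49 to 49.7, of which 4 held an AP-1 match. Grik3, a glutamate receptor subunit, Lingo1, Pde4a, Mroh5 and Sulf2 followed with a net of -4. With lists of equal size Rara, a retinoic acid receptor, and Sept9 had a net of -10, although both had more loci only in Hdac7SA.Mef2d with full lists (net 2 and 1). Fhl1 had the highest net in both settings, alone with full lists and tied at equal size, while Col9a1 had 7 and 3 and Cobl 6 and 3.

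Loci open only in Hdac7SA.Mef2d came in long unbroken runs. Since a class with more loci gives more runs, the count was also made with lists of equal size, where the classes held 35.2% and 34.8% of the loci. There 411 runs of 10 or more consecutive loci were open only in Hdac7SA.Mef2d and held 19.1% of its unshared loci, and 47 were open only in Hras.Myc and held 1.58%. With full lists, in the order of loci open in either line, 829 runs of 10 or more consecutive loci were open only in Hdac7SA.Mef2d and held 22.6% of its unshared loci (14785), while 6 such runs were open only in Hras.Myc and held 0.651% (90 loci). The longest Hdac7SA.Mef2d run had 108 loci over 4.75 Mb (chr19:48144107-52892141), a region with the sorting receptor genes Sorcs3 and Sorcs1, at 22.7 loci per Mb. The Hras.Myc list had no locus in it, the other 5 lists had 3 to 8, and in the 1 Mb on each side Hdac7SA.Mef2d had 77.5 and Hras.Myc 70.5 loci per Mb. Both lists were thus sparser in the run than beside it, and the Hras.Myc list was empty there.

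Other runs of Hdac7SA.Mef2d covered 70 loci around Tenm2, a teneurin adhesion protein of neurons (chr11:36275524-40385026), and 68 loci in under 1 Mb around Fgf9, a growth factor of mesenchyme and gonad (chr14:58101340-59084815). A run of 62 loci lay in Fhit, a tumour suppressor at a fragile site (chr14:9395596-11125439), and one of 58 loci began within Cdh11 and took in its promoter (chr8:102783974-104015773). The median ranks of these 4 runs were 57.2 to 60.7, above the middle of the list, and their median GC was 41.2 to 43.8%. The longest run of Hras.Myc had 19 loci over 1.86 Mb (chr12:106071695-107929505), from Vrk1 to Bcl11b, a zinc finger factor of T cells, skin and neurons. Hdac7SA.Mef2d had no locus there, Hras.Myc+TSA had 21 and Hras.Myc+PD 15, and beside it Hdac7SA.Mef2d had 67 and Hras.Myc 62.5 loci per Mb. The next run had 16 loci at Grik3 (chr4:125203498-125835701). Treated Hras.Myc cells had loci inside the longest runs of Hdac7SA.Mef2d, with 7 in Hras.Myc+TSA and 3 in Hras.Myc+PD in the longest and 8 in Hras.Myc+TSA in each of the next 2, so peaks were called there in that line. For the runs of Hras.Myc, closed chromatin and loss of the DNA in Hdac7SA.Mef2d cannot be told apart.

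**Figure D5:**
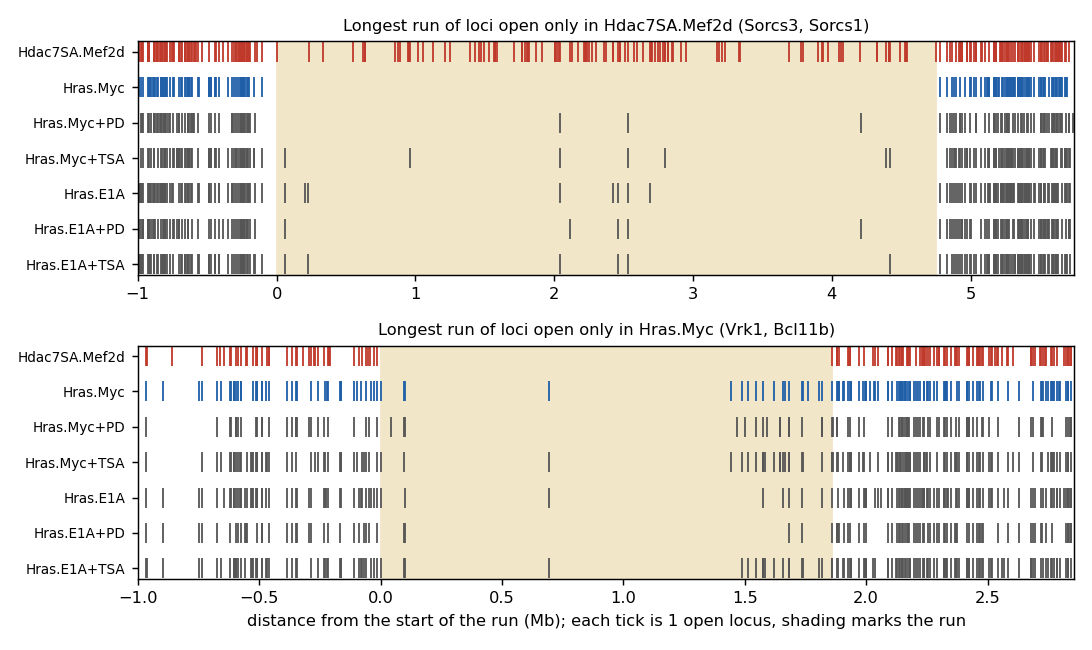
Open loci (ticks) in each of the 7 lists (rows) across the longest run of loci open only in Hdac7SA.Mef2d (top) and only in Hras.Myc (bottom), by distance from the start of the run (Mb), with 1 Mb on each side. Shading marks the run. In the upper run Hdac7SA.Mef2d had 108 loci and Hras.Myc 0, and in the lower run Hdac7SA.Mef2d had 0 and Hras.Myc 19.

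No single chromosome carried the difference. Over the autosomes and X, the share of loci open only in Hdac7SA.Mef2d lay between 40.4% on chromosome 7 and 54.8% on chromosome 16, and the share open only in Hras.Myc between 8.80% on chromosome 16 and 12.5% on chromosome 7. Chromosome Y had 16 loci in all.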

How the data were processed

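The authors aligned ATAC-seq reads to mm10 with Bowtie2 2.4.5, called peaks with MACS2 2.2.7.1 (versions from the submitters' processing notes) and kept weak peaks with the help of the peaks of other samples. The 7 deposited lists give peaks of 400 bp with a score of at least 1.20, on a scale that no source names. Scores were therefore ranked within each list. Keeping weak peaks with the help of other samples can make the lists more alike, so they are not independent. Libraries were pooled in each list except the TSA lists, which hold 1 library each. No test across samples was therefore made, and depth is unknown.

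Peaks were merged with Python 3.11.15 (pandas 2.3.3, NumPy 2.4.6, SciPy 1.17.1) and annotated with protein-coding transcripts of GENCODE M21 (basic), and sequence was read from GRCm38. Ratios have normal intervals on the log scale, and GC weighting used 10 bins. Merging and motif search were tested on simulated data and recovered 6000 of 6000 planted loci and 1040 of 1040 planted motifs. Genes were named by net loci within 10000 bp, by peak rank or rank difference, by the 3 longest runs of each line, as the members of each list with most loci, and by a fixed list (the introduced genes, Cdh1 and Epcam). Actc1, Cdh11, Cnn1, Col1a2, Col6a3, Fgf4, Fhit, Hdac9, Lox, Mmp3, Myog, Xirp1, the Hox genes other than Hoxa11 and the marker genes named as closed were chosen after their values were seen, as were the bins by GC, rank and rank difference and the motif positions. The members and gene lists were chosen with earlier results of these data known.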

Additional observations from a re-analysis of the deposited data

How the results depend on the processing

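Merging over the lists of these lines alone, a reciprocal overlap of 50%, a tolerance of 500 bp and autosomes alone kept the 3 locus counts within 1.5 times, and so did removing the weakest 25% of each list. Shortening the Hdac7SA.Mef2d list to 67738 peaks gave 36497 loci only in Hdac7SA.Mef2d, 36051 only in Hras.Myc and 31127 shared. Cutting all 7 lists to the shortest gave 31540, 31273 and 25161 in the same order. In both cases equal list length makes the unshared counts nearly equal by construction. The promoter share of loci only in Hdac7SA.Mef2d was 1.31% at equal size, 1.80% with promoters of 500 bp and 3.24% without the weakest 25%, and that of loci only in Hras.Myc was 17.3%, 4.08% and 7.44%. The ratios of MEF2, TEAD, RUNX, C/EBP, AP-1 and CTCF motifs kept their direction, with intervals that left out 1, over all loci, in the central 100 bp, after GC weighting and at equal size. After GC weighting the ratio turned for the Myc E-box (1.12), the E-box CAGCTG (1.06), homeobox (0.835), IRF (0.823), TCF/LEF (0.737) and NFI (1.28). At equal size it also turned for REL (0.984) and NRF1 (0.207), and the net loci turned at Foxp1 (-3), Mecom (-2), Nedd4l (-1), Rara (-10), Sept9 (-10), Agap3 (-7) and Hdac7 (-5). At other distances the net turned at Sept9 (-1) and Trim2 (2) within 5000 bp, and at Trim2 (1) and Cdh1 (2) within 50000 bp. The share of loci only in Hdac7SA.Mef2d left its interval for 23 of 28 gene lists at equal size, 11 without promoter loci, 10 within 50000 bp and 4 within 5000 bp. The runs and the rank differences at equal size (411 and 47 runs, 691 and 2810 loci) were added after the values were seen. No paired analysis was possible because the lists compared pool the replicates of their groups, and no replicate could be left out for the same reason. Depth is unknown, so a locus without a peak may be open below the threshold.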
